A study of Mus musculus with 4 samples.

Results

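The 28 genes described here encode the enzymes that build cholesterol from acetyl-CoA, the proteins that control sterol regulatory element-binding protein 2 (SREBP2), and carriers that move cholesterol inside the cell. They were listed by symbol, and each was read from the probe set annotated to it alone, taking the brightest where a gene had several. Of the 28, 24 had such a probe set, among 30743 genes named on the array. Tm7sf2 shared its probe set with Vps51, and Acat2, Soat1 and Soat2 had none. The 24 split into 17 synthesis genes, 4 regulators and 3 transport genes. All 24 passed a filter that kept the 18461 genes with a mean level at or above the 40th percentile.

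Mouse liver was measured on 4 arrays, each holding RNA pooled from 3 male fasted mice. The groups were YAP-KO at 24 h and wildtype at 24 h after 300 mg/kg intraperitoneal acetaminophen, a drug whose reactive metabolite injures hepatocytes, and YAP-KO and wildtype livers of fasted mice at 0 h. Wildtype mice carried a floxed Yap gene. The promoter that drives the recombinase, the deleted exons, the deleted cells and the age of the mice are not given in the sources used here. Each group being a single array, its values come without replicate error, differences between arrays carry no test, and the spread between mice is averaged away by pooling. No array of liver at 24 h without acetaminophen was used here, so drug, time and feeding after 0 h cannot be told apart. Levels and differences below are in log2 units, in which 1 unit is 2-fold, and a gene is called 2-fold when its difference is 1 or more in size. In whole liver, fewer cells of a type and less RNA per cell cannot be told apart.

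Cholesterol is made in the liver by a chain of enzymes that first forms mevalonate, then farnesyl diphosphate, then squalene, which is closed into a sterol ring and trimmed. When the endoplasmic reticulum holds little sterol, SCAP escorts SREBP2 to the Golgi, where it is cut, and the released part switches on the genes of this chain. INSIG proteins hold SCAP and SREBP2 back when sterol is plentiful.

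The array check of the deleted gene came out on the labelled side: Yap1 read 6.01 in YAP-KO and 8.24 in wildtype at 24 h, and 6.31 in YAP-KO and 7.54 in wildtype at 0 h. The medians over all probe sets were 4.36 and 4.32 in YAP-KO and wildtype at 24 h, and 4.46 and 4.47 at 0 h. Across measured genes, which are not independent replicates, the arrays correlated between 0.9565 (wildtype at 24 h with wildtype at 0 h) and 0.9928 (YAP-KO with wildtype at 0 h). Member levels ran from 6.13 to 17.92, below the array maxima of 19.83 to 19.93, and 0 members were saturated.

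The promoters of 4 synthesis genes are shown because they carry the extremes of what these genes share in sequence, and they were chosen after the levels had been seen. RefSeq windows of 300 bases, 250 before the start of the gene to 50 after it, were taken from the GRCm38.p6 table. Capitals mark the sterol regulatory element TCACNCCAC and the NF-Y box CCAAT, each searched on both strands (a box on the other strand reads ATTGG). Hmgcs1 lies at chr13:119690101-119690400 on the plus strand, Mvk at chr5:114444019-114444318 on the plus strand, Nsdhl at chrX:72918271-72918570 on the plus strand and Aacs at chr5:125475623-125475922 on the plus strand.
Hmgcs1: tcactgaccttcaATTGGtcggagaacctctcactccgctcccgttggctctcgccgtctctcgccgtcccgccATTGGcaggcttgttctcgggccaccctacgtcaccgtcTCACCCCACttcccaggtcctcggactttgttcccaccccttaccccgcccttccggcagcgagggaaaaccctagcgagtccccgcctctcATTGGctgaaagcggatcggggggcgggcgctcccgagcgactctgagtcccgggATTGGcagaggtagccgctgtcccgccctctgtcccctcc
Mvk: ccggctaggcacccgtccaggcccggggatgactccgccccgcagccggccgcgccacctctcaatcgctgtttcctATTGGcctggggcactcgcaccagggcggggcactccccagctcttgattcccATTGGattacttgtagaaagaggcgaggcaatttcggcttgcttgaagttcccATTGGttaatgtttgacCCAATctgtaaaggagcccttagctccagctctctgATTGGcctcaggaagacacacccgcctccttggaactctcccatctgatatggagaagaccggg
Nsdhl: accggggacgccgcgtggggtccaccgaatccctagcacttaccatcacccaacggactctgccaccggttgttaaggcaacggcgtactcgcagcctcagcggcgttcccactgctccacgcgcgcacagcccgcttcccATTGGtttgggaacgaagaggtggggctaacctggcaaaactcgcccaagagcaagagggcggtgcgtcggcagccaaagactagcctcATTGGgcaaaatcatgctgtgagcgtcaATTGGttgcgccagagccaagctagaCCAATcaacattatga
Aacs: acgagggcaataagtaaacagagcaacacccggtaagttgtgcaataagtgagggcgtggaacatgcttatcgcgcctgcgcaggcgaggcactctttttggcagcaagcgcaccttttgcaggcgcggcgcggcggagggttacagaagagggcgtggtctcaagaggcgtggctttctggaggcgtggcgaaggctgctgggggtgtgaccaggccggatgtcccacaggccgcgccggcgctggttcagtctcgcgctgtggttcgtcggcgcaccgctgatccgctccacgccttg

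The Hmgcs1 window held the element as TCACCCCAC, 137 bases before the start, and 4 NF-Y boxes. Mvk held 5 boxes and Nsdhl 4, whereas the Aacs window held neither motif. The table had windows for 19 of the 24 genes, and some genes had several. Of the 19, 17 had an NF-Y box in at least 1 window (89.5%), against 42.5% of the 10780 measured genes with a window. Aacs and Scap were the exceptions. By window the box was in 17 of 25 member windows (68.0%), against 37.6% of those of measured genes. The Sp1 box GGGCGG, which overlaps neither motif in letters, was in 20 of the 25 windows (80.0%), against 55.6%. The element itself was in 1 of 25 windows (4.0%), against 1.23%. A match describes letters in these windows and no binding was measured.

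At 24 h after acetaminophen the synthesis genes were higher in YAP-KO than in wildtype liver at nearly every step. YAP-KO exceeded wildtype by 2-fold or more for 15 of the 24 members, against 3.24% of all measured genes, and 0 were 2-fold lower, against 5.73%. Synthesis genes supplied 14 of the 15 and the SREBP2 regulator Insig1 the other. The synthesis median was 1.27 and that of the 7 other members 0.18, beside -0.02 over all measured genes.

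Before acetaminophen the same direction was seen at a smaller size. At 0 h, 4 members were 2-fold higher in YAP-KO, where 1.01% of all measured genes were, and 0 were 2-fold lower, where 0.878% were. The 4 were Sqle, Idi1, Hmgcs1 and Cyp51. All 4 were among the 15 at 24 h, while of the 186 measured genes 2-fold higher at 0 h 16.7% were also so at 24 h. The synthesis median was 0.74 at 0 h, the median of the other 7 members -0.05, and that of all measured genes -0.03.

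**Figure D1:**
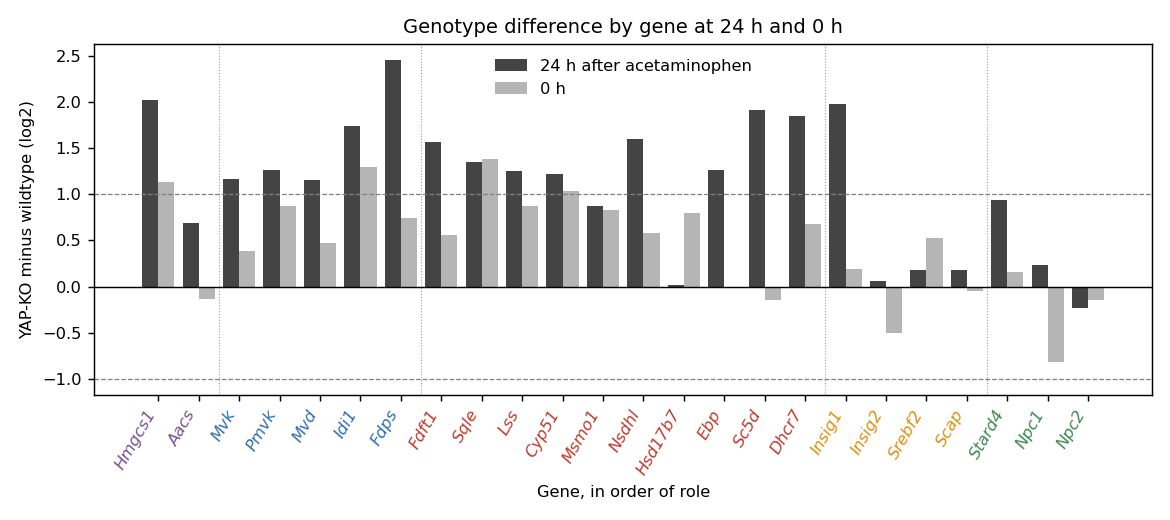
YAP-KO minus wildtype difference (vertical axis, log2 units) for 24 genes in order of role, with dark bars for 24 h after acetaminophen and pale bars for 0 h; dashed lines mark 2-fold, and each bar is a difference between single arrays. Synthesis genes from Hmgcs1 to Dhcr7 are mostly above 1 at 24 h, with Hsd17b7 at 0.02, Aacs at 0.69 and Msmo1 at 0.87, while 6 of the 7 other members are under 1.

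The pathway starts with acetoacetyl-CoA and its condensation to HMG-CoA. Hmgcs1 (Entrez gene 208715), the cytosolic HMG-CoA synthase, read 17.92 in YAP-KO and 15.90 in wildtype at 24 h, and 16.54 in YAP-KO and 15.41 in wildtype at 0 h. It was higher in YAP-KO at both times, by 2.02 (4.06-fold) at 24 h and by 1.13 at 0 h. Aacs (Entrez gene 78894) encodes acetoacetyl-CoA synthetase, which activates the ketone body acetoacetate. It read 8.37 in YAP-KO and 7.68 in wildtype at 24 h, and 8.62 in YAP-KO and 8.76 in wildtype at 0 h. Unlike Hmgcs1, Aacs was highest in wildtype at 0 h, and its genotype difference was 0.69 at 24 h and -0.14 at 0 h.

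All 5 genes of the mevalonate to farnesyl diphosphate steps were 2-fold higher in YAP-KO at 24 h, and all 5 were above 0 at 0 h. Of all measured genes 3.24% were 2-fold higher at 24 h. The largest difference of any member at 24 h was that of Fdps (Entrez gene 110196), farnesyl diphosphate synthase, which read 14.60 in YAP-KO and 12.14 in wildtype at 24 h, and 13.10 in YAP-KO and 12.36 in wildtype at 0 h. That is 2.46 (5.50-fold) at 24 h, rank 50 from the top of 18461 genes, and 0.74 at 0 h. Idi1 (Entrez gene 319554), the isomerase of isopentenyl diphosphate, read 16.04 in YAP-KO and 14.30 in wildtype at 24 h, and 15.28 in YAP-KO and 13.98 in wildtype at 0 h. Its differences of 1.74 and 1.30 place both YAP-KO arrays above both wildtype arrays. Upstream of both lie the kinases and the decarboxylase, and Mvk (mevalonate kinase) read 7.91 in YAP-KO and 6.74 in wildtype at 24 h, and 6.55 in YAP-KO and 6.16 in wildtype at 0 h. Pmvk (phosphomevalonate kinase) read 9.47 in YAP-KO and 8.20 in wildtype at 24 h, and 9.21 in YAP-KO and 8.34 in wildtype at 0 h. Mvk was higher at 24 h than at 0 h in both genotypes, whereas Pmvk followed genotype more than time. Mvd, the decarboxylase that makes isopentenyl diphosphate, read 8.15 in YAP-KO and 6.99 in wildtype at 24 h, and 6.95 in YAP-KO and 6.48 in wildtype at 0 h, so that YAP-KO at 0 h and wildtype at 24 h lay next to each other.

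From squalene on, 8 of 10 genes were 2-fold higher in YAP-KO at 24 h and 2 of 10 at 0 h. Of all measured genes 3.24% were so at 24 h and 1.01% at 0 h. Fdft1, squalene synthase, read 12.01 in YAP-KO and 10.44 in wildtype at 24 h, and 10.88 in YAP-KO and 10.32 in wildtype at 0 h. Sqle (Entrez gene 20775), the squalene epoxidase and a rate-controlling step of the later pathway, read 12.73 in YAP-KO and 11.38 in wildtype at 24 h, and 11.24 in YAP-KO and 9.86 in wildtype at 0 h. The genotype difference of Sqle was alike at both times, 1.35 and 1.38, and of the 24 members it had the highest at 0 h (rank 72 from the top). Lss, which closes squalene epoxide into lanosterol, read 10.57 in YAP-KO and 9.32 in wildtype at 24 h, and 8.45 in YAP-KO and 7.58 in wildtype at 0 h. Cyp51, the lanosterol demethylase, read 14.29 in YAP-KO and 13.07 in wildtype at 24 h, and 13.24 in YAP-KO and 12.20 in wildtype at 0 h. Both were lowest in wildtype at 0 h and highest in YAP-KO at 24 h.

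The enzymes that remove the methyl groups of the sterol ring differed among themselves. Msmo1, the methyl oxidase, read 10.58 in YAP-KO and 9.71 in wildtype at 24 h, and 9.21 in YAP-KO and 8.38 in wildtype at 0 h, a genotype difference of 0.87 and 0.83. Nsdhl, the dehydrogenase of the same cycle, read 12.83 in YAP-KO and 11.23 in wildtype at 24 h, and 11.41 in YAP-KO and 10.83 in wildtype at 0 h. Hsd17b7, its keto-reductase, read 11.36 in YAP-KO and 11.34 in wildtype at 24 h, and 10.70 in YAP-KO and 9.90 in wildtype at 0 h. The genotype difference was thus 1.60 and 0.58 for Nsdhl at 24 h and 0 h, but 0.02 and 0.80 for Hsd17b7. The shared probe set of Tm7sf2 (a sterol reductase gene) and Vps51 read 6.18 in YAP-KO and 5.89 in wildtype at 24 h, and 6.26 in YAP-KO and 6.15 in wildtype at 0 h.

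In the last 3 steps before cholesterol the wildtype 24 h array was the lowest of the 4. Ebp, the sterol isomerase, read 9.52 in YAP-KO and 8.25 in wildtype at 24 h, and 8.88 in both genotypes at 0 h. Sc5d (Entrez gene 235293), the sterol desaturase, read 15.03 in YAP-KO and 13.11 in wildtype at 24 h, and 14.67 in YAP-KO and 14.82 in wildtype at 0 h. For Sc5d 3 arrays lay within 0.36 of each other and wildtype at 24 h stood apart below them. Dhcr7, the reductase that yields cholesterol, read 9.26 in YAP-KO and 7.41 in wildtype at 24 h, and 8.40 in YAP-KO and 7.72 in wildtype at 0 h. At 24 h the 3 genes were 1.27, 1.92 and 1.85 higher in YAP-KO, while at 0 h the differences were 0.00, -0.15 and 0.68.

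**Figure D2:**
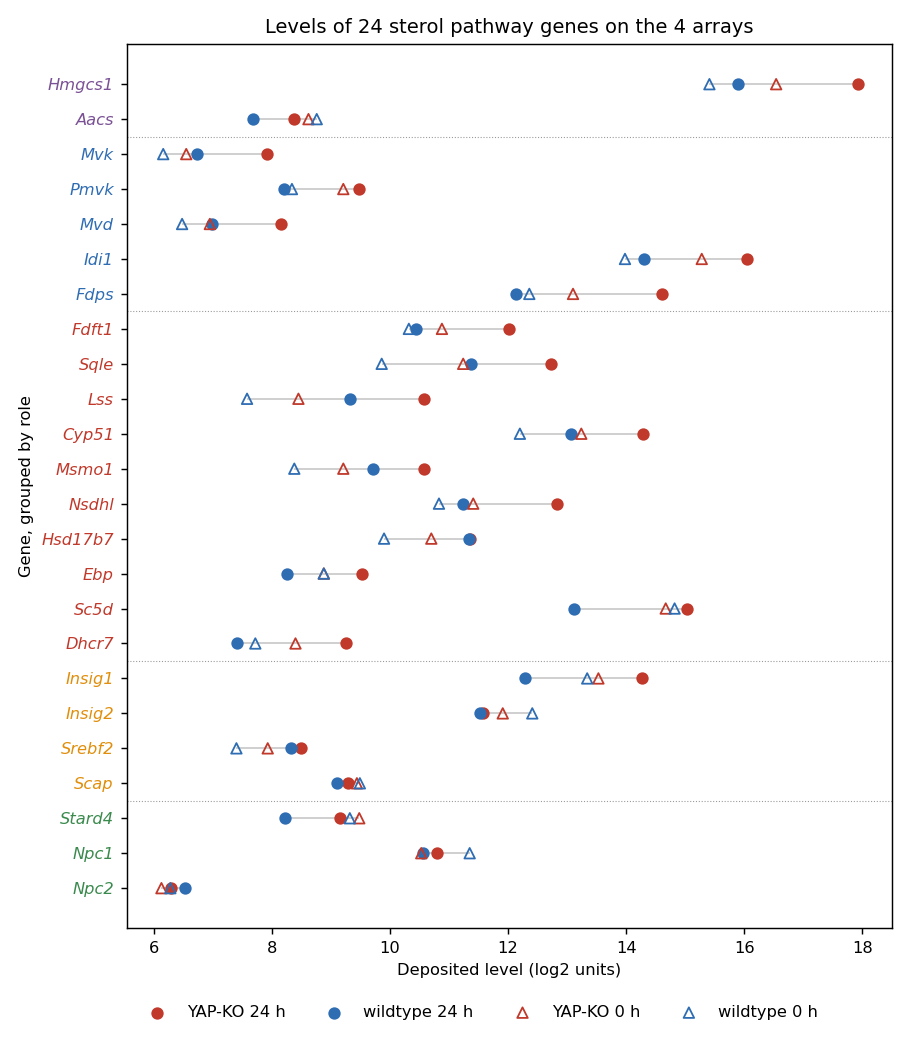
Deposited log2 level (horizontal axis) of 24 genes, grouped by role from top to bottom, on the YAP-KO 24 h (filled red circle), wildtype 24 h (filled blue circle), YAP-KO 0 h (open red triangle) and wildtype 0 h (open blue triangle) arrays, 1 pooled array each. YAP-KO at 24 h is the rightmost point for 16 of 17 synthesis genes; levels of different genes come from different probe sets and are not comparable with each other.

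Among the regulators, Insig1 alone was 2-fold higher in YAP-KO at 24 h. Insig1 (Entrez gene 231070), which retains SCAP and is itself switched on by SREBP, read 14.27 in YAP-KO and 12.29 in wildtype at 24 h, and 13.53 in YAP-KO and 13.34 in wildtype at 0 h. Its difference of 1.98 at 24 h (3.94-fold) ranked 105 from the top, against 0.19 at 0 h. Insig2, the second retention protein, read 11.58 in YAP-KO and 11.52 in wildtype at 24 h, and 11.91 in YAP-KO and 12.41 in wildtype at 0 h. It was lower at 24 h than at 0 h in both genotypes. Srebf2 (Entrez gene 20788), which encodes SREBP2, read 8.50 in YAP-KO and 8.32 in wildtype at 24 h, and 7.93 in YAP-KO and 7.40 in wildtype at 0 h. Its genotype difference was 0.18 at 24 h and 0.53 at 0 h, and its 4 arrays had the order seen for 11 of 17 synthesis genes, with YAP-KO at 24 h highest and wildtype at 0 h lowest. Scap, the escort protein gene, read 9.29 in YAP-KO and 9.11 in wildtype at 24 h, and 9.44 in YAP-KO and 9.49 in wildtype at 0 h. Its largest difference in size was -0.38, over time in wildtype.

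Among the transport genes 0 of 3 differed 2-fold between the genotypes at either time in the deposited values. Of all measured genes 3.24% were 2-fold higher and 5.73% lower in YAP-KO at 24 h, and 1.01% and 0.878% at 0 h. A count of 0 therefore says little for a list of 3. Stard4, a cytosolic sterol carrier gene, read 9.16 in YAP-KO and 8.22 in wildtype at 24 h, and 9.48 in YAP-KO and 9.32 in wildtype at 0 h, and was 0.94 higher in YAP-KO at 24 h (1.07, over 2-fold, after quantile normalization). Npc1, whose protein exports cholesterol from lysosomes after lipoprotein uptake, read 10.79 in YAP-KO and 10.56 in wildtype at 24 h, and 10.53 in YAP-KO and 11.35 in wildtype at 0 h. Npc1 had the lowest genotype difference of any member at 0 h, -0.82. Npc2, its soluble partner, read 6.30 in YAP-KO and 6.53 in wildtype at 24 h, and 6.13 in YAP-KO and 6.28 in wildtype at 0 h, and was the 1 member below 0 at 24 h (-0.23).

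Over time in YAP-KO liver, 10 of the 24 members were 2-fold higher at 24 h than at 0 h, against 4.72% of all measured genes, and 0 were 2-fold lower, against 2.22%. All 10 were synthesis genes, whose median was 1.13, against 0.17 for the other members and 0.07 over all measured genes. Lss led with 2.12 (4.35-fold, rank 74 from the top), followed by Fdps (1.5), Sqle (1.49), Nsdhl (1.42), Hmgcs1 (1.38), Msmo1 (1.37), Mvk (1.36), Mvd (1.20), Fdft1 (1.13) and Cyp51 (1.05). Cyp51 was 0.81 after quantile normalization. The lowest synthesis value was that of Aacs (-0.25). Read against the wildtype 0 h array in place of the YAP-KO 0 h array, 15 members were 2-fold higher and the synthesis median was 1.75. Of 18461 measured genes 1555 were then called in either direction, where 1280 were against the YAP-KO 0 h array.

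In wildtype liver the synthesis genes lay on both sides of 0. At 24 h against 0 h, 4 of 24 members were 2-fold higher, where 12.7% of all measured genes were, and 4 were 2-fold lower, where 5.89% were. The higher count is not far above the share of all measured genes. The higher genes were Lss (1.74), Sqle (1.52), Hsd17b7 (1.44) and Msmo1 (1.33), all of the squalene and sterol steps. Under 2-fold in those steps were Cyp51 (0.87), Nsdhl (0.40), Fdft1 (0.12), Dhcr7 (-0.31) and Ebp (-0.63). The members 2-fold lower were Sc5d (-1.71), Stard4 (-1.10), Aacs (-1.08) and Insig1 (-1.05). With each array centred on its median the split was 6 higher and 1 lower. Centring moved the median of all measured genes in this contrast to 0.22 from 0.07. Of the 18461 measured genes 3803 were then called in either direction (3423 as deposited). With the YAP-KO 0 h array as baseline the split was 0 higher and 4 lower, and 3110 measured genes were called in either direction. The higher calls therefore hold only against the wildtype 0 h array. That swap takes off the genotype difference at 0 h given above, and is no separate check of either 0 h array. The other steps up to farnesyl diphosphate ran from -0.22 for Fdps and -0.14 for Pmvk (0.01 after centring) to 0.32 for Idi1, 0.49 for Hmgcs1 (-0.10 after quantile normalization), 0.51 for Mvd and 0.58 for Mvk. Of the 10 members 2-fold higher over time in YAP-KO, 3 (Lss, Sqle and Msmo1) were also 2-fold higher in wildtype, where 3 of 4 such members were shared. Among all measured genes that passed 2-fold upwards over time in YAP-KO, 61.3% passed it in wildtype too, and 22.9% of those that passed it in wildtype did so in YAP-KO.

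The responses over time differed most at the end of the pathway and at Fdps and Insig1. The YAP-KO response minus the wildtype response was 2-fold or more for 8 members, all positive, against 5.66% of all measured genes on the positive side and 7.5% on the negative side. The 8 were Sc5d (2.07), Insig1 (1.79), Fdps (1.72), Ebp (1.27), Dhcr7 (1.17), Npc1 (1.05), Nsdhl (1.02) and Fdft1 (1.01). With arrays centred on their medians Nsdhl (0.97) and Fdft1 (0.96) were under 2-fold, and after quantile normalization Hmgcs1 was over it (1.34, from 0.89). Sqle (-0.03), Msmo1 (0.04) and Cyp51 (0.18) had nearly equal responses in the genotypes, and Hsd17b7 was lower in YAP-KO (-0.78). These differences of single arrays carry no test. The sign of the response was opposite in the genotypes for 7 members, against 31.4% of all measured genes, and 13 members were higher at 24 h in both genotypes, against 40.1%.

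**Figure D3:**
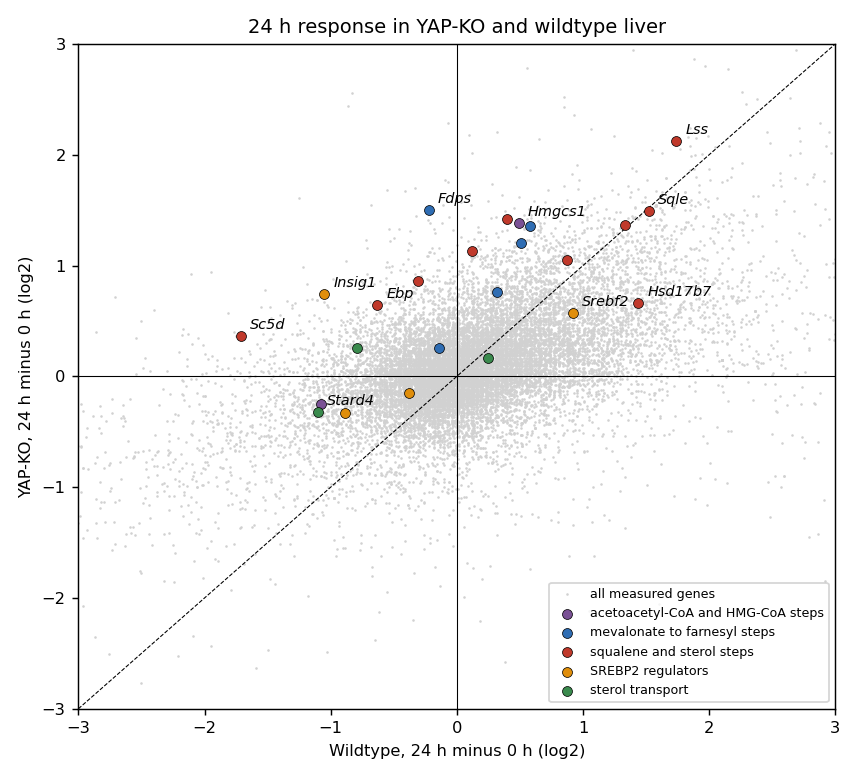
Response over 24 h in YAP-KO (vertical axis) against that in wildtype (horizontal axis), both as 24 h minus 0 h in log2 units, with 24 members coloured by role over all measured genes in grey; the axes stop at 3, which leaves out 293 measured genes and 0 members. Fdps, Insig1, Ebp and Sc5d lie in the upper left, higher in YAP-KO and lower in wildtype at 24 h, and Sqle lies on the dashed line of equal response.

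Read across the 4 arrays, YAP-KO at 24 h held the highest level for 18 of 24 members and 16 of 17 synthesis genes, against 20.2% of all measured genes. YAP-KO at 24 h was highest and wildtype at 0 h lowest for 12 members, against 6.59%, and 11 of the 12 were synthesis genes. Srebf2 was the remaining one. Wildtype at 0 h was lowest for 12 members, against 26.4%, the same 12 as those just named. Wildtype at 24 h was the lowest array for 10 members, against 29.1%, among them Pmvk, Fdps, Ebp, Sc5d, Dhcr7 and Aacs in synthesis. Genotype had the same sign at both times, with YAP-KO higher, for 17 members, against 18.3%. Under quantile normalization YAP-KO at 24 h was highest for 17 members (25.6% of all measured genes), and for 10 (9.16%) wildtype at 0 h was also lowest. Wildtype at 24 h was then lowest for 13 (33.5%). Under median centring these counts were 17 (23.6%), 12 (8.61%) and 9 (19.8%). At a threshold of 1.5-fold in either direction, 18 members were called between the genotypes at 24 h (21.7% of all measured genes were) and 11 at 0 h (8.29%). Over time 15 were called in YAP-KO (19.5%) and 13 in wildtype (35.2%), and 14 for the difference of the responses (30.2%).

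The design allowed a single test, an additive limma model with terms for genotype and time, whose 1 residual degree of freedom comes from the interaction. At a Benjamini-Hochberg adjusted p under 0.05 it called 0 genes and 0 members for either effect. For YAP-KO against wildtype, 12 of 24 members had an unadjusted limma p under 0.05, against 2.37% of all measured genes, and all 12 were higher in YAP-KO. Sqle had the lowest of these, with a mean difference of 1.37 ± 0.171 (SE), higher in YAP-KO at 2 of 2 times, an unadjusted p of 0.00351 and an adjusted limma p of 0.997. For 24 h against 0 h, 8 members had an unadjusted limma p under 0.05, against 15.3%, all higher at 24 h. Lss led with 1.93 ± 0.202 (SE) and an adjusted limma p of 0.285. The adjusted values fail the threshold, and genes whose response differs by genotype, such as Sc5d (0.88 ± 0.609, SE, for genotype), have large errors in this fit.

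Other genes of sterol control mostly stayed apart from the synthesis genes. Of 18 measured, 3 were 2-fold higher in YAP-KO at 24 h, against 3.24% of all measured genes, and 0 lower, against 5.73%. The median of the 18 was 0.02. Syvn1, a ubiquitin ligase of the endoplasmic reticulum, was 2.35 higher at 24 h and 1.86 at 0 h. Lrp1, an endocytic receptor for lipoprotein remnants, was 1.77 higher at 24 h and -0.05 at 0 h, and Erlin1, an endoplasmic reticulum membrane protein gene, was 1.05 and 0.49. Tmem97, an endoplasmic reticulum protein gene, was the 1 gene of that list 2-fold higher over time in YAP-KO (1.43, against 0.27 in wildtype). Among all measured genes 4.72% were.

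The SREBP1 lipogenesis genes, which make fatty acids, had a different course from the cholesterol genes. In YAP-KO 5 of 13 were 2-fold lower at 24 h than at 0 h (2.22% of all measured genes were) and 0 higher (4.72%). The median of the 13 was -0.84, where the cholesterol synthesis median was 1.13. In wildtype 10 of 13 were lower (5.89%) and 0 higher (12.7%), with a median of -1.27 beside 0.40 for cholesterol synthesis. Between the genotypes at 24 h, 4 of 13 were 2-fold higher in YAP-KO, against 3.24%, and 0 lower, against 5.73%. The 4 were Fasn (2.51), Thrsp (1.63), Acss2 (1.51) and Fads1 (1.13), and the median of the 13 was 0.79. At 0 h 0 of 13 differed 2-fold, where 1.01% of all measured genes were higher and 0.878% lower. Genes that turn cholesterol into bile acids were 2-fold higher in YAP-KO at 24 h in 8 of 10 cases, against 3.24% of all measured genes. Their median was 1.49, with Cyp7a1, the rate-limiting enzyme, at 3.27. At 0 h 0 of those 10 differed 2-fold and the median was -0.32. With so few genes passing 2-fold at 0 h, a count of 0 says little for lists this short. Over time the bile acid median was -0.88 in YAP-KO and -3.08 in wildtype.

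**Figure D4:**
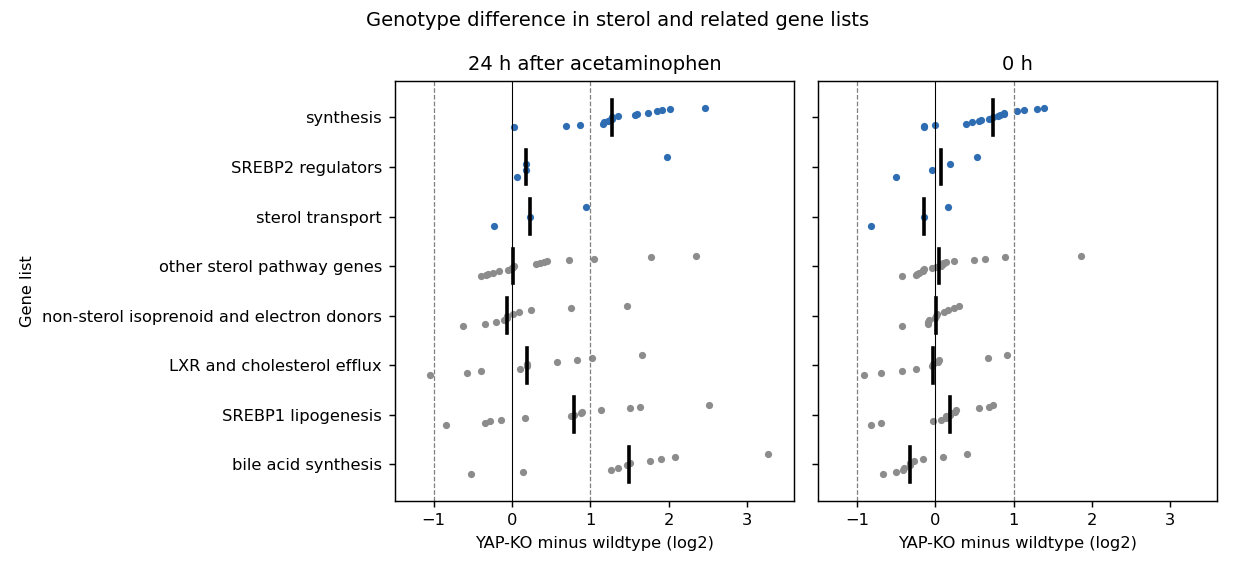
YAP-KO minus wildtype difference (horizontal axis, log2 units) of each gene in 8 lists, at 24 h after acetaminophen (left) and 0 h (right); points are genes measured on single arrays, blue for members and grey for other genes, black bars are list medians and dashed lines mark 2-fold. The synthesis list has a median of 1.27 at 24 h and 0.74 at 0 h, while lipogenesis and bile acid genes have medians of 0.79 and 1.49 at 24 h and 0.18 and -0.32 at 0 h.

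Markers of other liver cell types differed with time and genotype beside these results, and their part in them was not tested. The summed log2 level of 12 of 12 monocyte and macrophage markers was 103.8 in YAP-KO and 114.8 in wildtype at 24 h, and 86.6 in YAP-KO and 87.6 in wildtype at 0 h. At 24 h 11 of the 12 were below 0 between the genotypes and 5 were 2-fold lower in YAP-KO (median -0.78), from Cd14 at -3.73 to Ccr2 at 0.46, with Cd68 at -0.02. For 6 of 9 neutrophil markers it was 38.0 in YAP-KO and 44.6 in wildtype at 24 h, and 33.5 in YAP-KO and 32.7 in wildtype at 0 h. Of the 6, Retnlg (-2.68), S100a8 (-2.47) and S100a9 (-1.63) were 2-fold lower in YAP-KO at 24 h, whereas Ly6g (0.53) and Camp (0.18) were above 0. Sums for 9 of 9 hepatocyte markers, 4 of which were saturated on all arrays, were 165.0 in YAP-KO and 163.0 in wildtype at 24 h, and 166.0 in YAP-KO and 165.5 in wildtype at 0 h. Tat and Cyp2e1 were at the array maximum on 3 of 4 arrays, all but wildtype at 24 h, so their differences at 24 h (0.58 and 0.49) are not exact. Cps1, with the largest difference at 24 h (0.77), was close to the maximum on the same arrays (19.85, 19.81 and 19.84). Of the markers well below it, Hnf4a was -1.45 over time in YAP-KO and -0.90 in wildtype. Apoc3 was 0.02 in YAP-KO and -0.03 in wildtype. Sums made mostly of values at or near the maximum can hide changes. Endothelial markers (7 of 7) summed to 66.0 in YAP-KO and 70.8 in wildtype at 24 h, and 62.0 in YAP-KO and 61.8 in wildtype at 0 h. Lyve1 (-3.88) and Cdh5 (-1.49) were 2-fold lower in YAP-KO at 24 h, while 4 of the 7 were above 0 and the median was 0.02. Stellate cell markers (8 of 8) summed to 63.5 in YAP-KO and 63.0 in wildtype at 24 h, with 59.3 in YAP-KO and 58.5 in wildtype at 0 h. At 24 h Lrat (1.16) was 2-fold higher in YAP-KO and Dcn (-1.21) 2-fold lower, with 5 of the 8 above 0 and a median of 0.20. Of 6 cholangiocyte markers 4 and of 9 lymphocyte markers 2 passed the filter, with median genotype differences of -0.08 (cholangiocyte) and 0.06 (lymphocyte) at 24 h, against 0.16 and 0.04 before acetaminophen.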

How the data were processed

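Total RNA of liver lysates from 4 pools of 3 mice was labelled with biotin (GeneChip WT Plus kit) and hybridised to 1 array per pool, per the labels. The deposited values are on a log2 scale, as read from their range (2.24 to 19.93). The log base, summarisation, background correction and normalization are not given in the sources used here. Of 65956 probe sets, 31216 carried 1 gene after symbols were updated through Entrez identifiers to RefSeq (GRCm38.p6), 1534 carried several and 33206 none. Genes were kept at or above the 40th percentile of mean level (4.32), and values were used as deposited. A value within 0.01 of its array's maximum was treated as saturated. Array number limits the precision.

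Differences between single arrays carry no test. The additive fit used limma 3.58.1 (R 4.3.3) with Benjamini-Hochberg adjustment over all measured genes. It was tested on simulated data, where in most runs it called none of the changed genes. Percentages beside counts are the share of all 18461 measured genes that met the same rule. Members, lists and tests were chosen with earlier results of these data known. The text names every member with its own probe set, and up to 4 genes of each other pathway list by size of difference. Cell type markers named in the text are examples and were not picked by that rule. Alternatives were quantile normalization, median centring, the mean of probe sets, other filters, a 1.5-fold threshold, and the other genotype's 0 h array as baseline.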

Additional observations from a re-analysis of the deposited data

Results flagged for a closer look

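The following members had responses or genotype differences of opposite sign, each from single arrays, so that the difference was not tested. Across all measured genes 31.4% had opposite signs over time in the genotypes, and 7 of 24 members did. Those shares are near each other, so opposite signs do not set these members apart. Comparing 24 h with 0 h, Sc5d was 0.36 in YAP-KO and -1.71 in wildtype, 2.07 apart, but its YAP-KO value was -0.02 after quantile normalization. Insig1 was 0.74 in YAP-KO and -1.05 in wildtype, 1.79 apart. Fdps was 1.5 in YAP-KO and -0.22 in wildtype, 1.72 apart. Ebp was 0.64 in YAP-KO and -0.63 in wildtype, 1.27 apart, and Dhcr7 was 0.86 in YAP-KO and -0.31 in wildtype, 1.17 apart. Npc1 was 0.26 in YAP-KO and -0.79 in wildtype, 1.05 apart. Pmvk was 0.26 in YAP-KO and -0.14 in wildtype (0.01 after centring), 0.40 apart.

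Comparing YAP-KO with wildtype at 24 h and at 0 h, the sign turned for Sc5d (1.92 and -0.15, 2.07 apart), Npc1 (0.23 and -0.82, 1.05 apart), Aacs (0.69 and -0.14, 0.83 apart), Insig2 (0.06 and -0.50, 0.56 apart) and Scap (0.18 and -0.05, 0.23 apart). These gaps equal the differences of the responses over time, since both are made from the same 4 arrays. Some of the values lie near 0, and Sc5d at 0 h was -0.02 after quantile normalization. The share of all measured genes with such a turn was not counted, so the turns do not set these members apart.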

How the results depend on the processing

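No paired analysis was possible because each group holds 1 array and the groups share 1 replicate number. The mean of probe sets and the filters at the 60th percentile or at none changed no member value, since each of the 24 members has 1 probe set and passes them. Quantile normalization moved the wildtype synthesis median over time to 0.04 from 0.40, and the median of the 7 other members between the genotypes at 24 h to 0.32 from 0.18. At 1.5-fold the members called were 13 (8 at 2-fold) over time in wildtype, 11 (4) for YAP-KO against wildtype at 0 h, and 14 (8) where the responses were compared. With the YAP-KO 0 h array as baseline, wildtype had 4 members called in place of 8 (3110 measured genes in place of 3423). The wildtype synthesis median was then -0.44 in place of 0.40, and that of the other members -0.33 in place of -0.79. With the wildtype 0 h array as baseline, YAP-KO had a synthesis median of 1.75 in place of 1.13 and -0.16 in place of 0.17 for the others. Centring raised the median over all measured genes to 0.22 in wildtype and 0.17 in YAP-KO over time, from 0.07 in both. Between the genotypes at 24 h, 17 members were called after quantile normalization (15 as deposited), with Msmo1 (1.06) and Stard4 (1.07) gained. Of all measured genes 1550 were called (1656 as deposited). Signs of the genotype difference at 24 h turned under centring for Hsd17b7 alone (-0.02). The additive fit called 0 genes under every setting run. For genotype, 818 of 30743 genes without a filter and 437 of 18461 with it had an unadjusted limma p under 0.05. The cause of these shifts was not tested. Signal over background is not known for these arrays.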

Other observations

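Lists next to the pathway held further differences. Among 10 measured genes of cholesterol efflux and liver X receptor control, the sterol exporter genes Abcg8 and Abcg5 were 1.66 and 1.02 higher in YAP-KO than in wildtype at 24 h, and -0.69 and -0.91 at 0 h. Over time they were -0.63 and 0.07 in YAP-KO, against -2.98 and -1.86 in wildtype. Lpcat3, a phospholipid remodelling enzyme gene, had a genotype difference of -1.05 at 24 h, and Pltp, the phospholipid transfer protein gene, was -1.46 over time in YAP-KO against -0.21 in wildtype.

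Of 11 genes that use farnesyl diphosphate for products other than sterols or pass electrons to sterol enzymes, 1 was 2-fold higher in YAP-KO at 24 h, Cyb5b, a cytochrome b5 gene (1.47, and 0.00 at 0 h), and 0 were lower. Among all measured genes 3.24% were higher and 5.73% lower. Dhdds and Nus1 encode the subunits of the enzyme that makes dolichol precursors. Over time Dhdds was 1.11 in YAP-KO and 0.47 in wildtype, and Nus1 was 0.74 in YAP-KO and 1.53 in wildtype.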
